A study of Mus musculus with 12 samples.

Results

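A group of 10 genes typical of leptomeningeal fibroblasts and of the barrier they help to form was followed in RNA-Seq of the cerebral cortex of aged E4FAD mice. The genes were matched by symbol in the annotation of GRCm38, and all 10 were found among the 50563 genes of the count table and among the 15688 that were abundant enough to enter the edgeR fit. Of these, 5 encode proteins of the extracellular matrix or the fibroblast surface (Dcn, Lum, Ogn, Fmod and Islr) and 5 encode solute carriers (Slc6a20a, Slc6a13, Slc22a6, Slc47a1 and Slc13a4). They were chosen with their difference between the treatment groups known, so that this difference is described here and not tested.

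All mice were of the E4FAD strain with the genotype APOE4+/+, 5FAD-/+, which combines human APOE4 in place of the mouse gene with transgenes for familial Alzheimer's disease mutations that are driven by the neuronal Thy1 promoter. The CTRL group held 7 mice that received vehicle by gavage, of which 2 were 12 months old (replicates 1 and 7) and 5 were 14 months old. The DPAn-6 group held 5 mice, of which 2 were 12 months old (replicates 3 and 4) and 3 were 14 months old, and these received 700 mg/kg of the ethyl ester of docosapentaenoic acid n-6 daily by gavage for 3 weeks. The vehicle contained 0.1% of each of a pair of antioxidants, which were given to both groups, and the study's methods count 4 females and 3 males in CTRL and 3 females and 2 males in DPAn-6. All animals were perfused with buffered saline, and whether the meninges were stripped from the cortex is not given in the sources used here. Total counts ranged from 15208803 to 26520251 per mouse. Markers of excitatory cortical neurons summed to 6971 to 8677 CPM (counts scaled to a common library total) in every library, while the 10 genes summed to 49.1 to 146.4 CPM. The library of CTRL replicate 3 stood apart, with a chi-square per gene of 58.5 to 105.8 against the other CTRL libraries. The other CTRL pairs gave 7.36 to 38.8. For the counts of genes called, the median difference of the 10 genes and Ogn, values without this library are also given.

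The leptomeninges, the arachnoid and pia, wrap the brain and follow its penetrating vessels. Their fibroblasts lay down a collagen matrix whose fibrils are spaced by small leucine-rich proteoglycans, and the arachnoid barrier layer holds carriers that move amino acids, organic anions and cations, and inorganic ions between blood, cerebrospinal fluid and brain. In a bulk library of cortex such transcripts come from the thin sheet and the perivascular spaces that remain on the tissue, and fewer cells of a type and less RNA per cell cannot be told apart.

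RefSeq promoters of GRCm38.p6 were matched for 7 of the 10 genes, and 4 of them are shown because they carry the range of sequence features found in the group. Slc22a6 was the gene whose treatment groups did not overlap, Slc13a4 had the largest difference, and Slc6a20a had the promoter with the most CpG. Ogn had the one with the letters of a TATA box core, 227 bases before the start on the gene strand and 229 on the other. Each is the 250 bases before the start, read 5′ to 3′ on the gene's strand, and capitals mark matches on either strand to a TATA box core (TATAAA), a GC box (GGGCGG) or a CCAAT box (CCAAT), where 2 matches can overlap. The windows are chr19:8617746-8617995 (+) for Slc22a6, chr6:35308127-35308376 (-) for Slc13a4, chr9:123678833-123679082 (-) for Slc6a20a and chr13:49607765-49608014 (+) for Ogn.
Slc22a6: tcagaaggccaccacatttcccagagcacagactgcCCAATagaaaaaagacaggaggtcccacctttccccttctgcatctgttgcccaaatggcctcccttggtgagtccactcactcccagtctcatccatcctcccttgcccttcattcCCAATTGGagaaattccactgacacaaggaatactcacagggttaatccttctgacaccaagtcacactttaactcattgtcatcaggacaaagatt
Slc13a4: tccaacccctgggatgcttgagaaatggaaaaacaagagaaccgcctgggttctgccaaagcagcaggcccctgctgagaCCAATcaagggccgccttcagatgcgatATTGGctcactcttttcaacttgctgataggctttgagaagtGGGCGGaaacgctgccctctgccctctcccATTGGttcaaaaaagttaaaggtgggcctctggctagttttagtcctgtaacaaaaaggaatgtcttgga
Slc6a20a: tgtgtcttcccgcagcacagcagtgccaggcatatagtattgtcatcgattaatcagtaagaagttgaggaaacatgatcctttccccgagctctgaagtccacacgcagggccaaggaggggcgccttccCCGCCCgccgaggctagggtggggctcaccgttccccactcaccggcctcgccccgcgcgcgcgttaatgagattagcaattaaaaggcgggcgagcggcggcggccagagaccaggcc
Ogn: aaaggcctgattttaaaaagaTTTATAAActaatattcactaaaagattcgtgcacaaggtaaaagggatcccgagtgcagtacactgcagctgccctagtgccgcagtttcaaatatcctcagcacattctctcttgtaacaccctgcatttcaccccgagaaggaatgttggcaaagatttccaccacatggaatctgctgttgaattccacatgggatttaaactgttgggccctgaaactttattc

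The 4 windows had little in common. The Slc22a6 window held no CpG and a GC content of 48.4%, whereas the Slc6a20a window held 21 CpG at a GC content of 61.2%, an observed-to-expected CpG ratio of 0.90 against a median of 0.37 over all 32851 promoters. The TATA box core was found only in the Ogn window among the 9 promoters of the 7 genes, and in 12.37% of all promoters. GC boxes lay in 3 of the 9 promoters (Slc13a4, Slc6a13 and Slc6a20a, against 32.74% of all promoters) and CCAAT boxes also in 3 (Slc13a4, Slc6a13 and Slc22a6, against 33.85% of all promoters). The forkhead core (TGTTTAC), the kind of site read by the meningeal factor Foxc1, was in none of the 9 and in 3.17% of all promoters. These are matches of letters in a window and describe no binding.

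DPAn-6 mice had less mRNA of all 10 genes. The log2 fold changes, DPAn-6 minus CTRL, ran from -1.30 for Slc13a4 to -0.37 for Slc6a13 with a median of -0.80, where the median over all genes tested was -0.0047 and 51.3% of genes were below 0. The matrix and surface genes (median -0.80) and the carriers (median -0.81) lay together. By edgeR's quasi-likelihood test with Benjamini-Hochberg adjustment 6 of the 10 were below an adjusted p of 0.05, where 1.14% of all genes were called as lower, and 1 of the 10 had every DPAn-6 mouse below every CTRL mouse, where 1.49% of all genes did. Since the genes were picked on this contrast, nothing is read from either count. Of the DPAn-6 mice, leaving out replicate 3 lowered the count of 6 to 0, replicate 2 or 4 to 1, and replicate 5 to 2. Of the CTRL mice, leaving out replicate 4 lowered it to 2 and replicate 1, 2 or 5 to 3. Leaving out CTRL replicate 3 kept it at 6 and gave a median difference of -0.69 on the log2 scale.

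**Figure D1:**
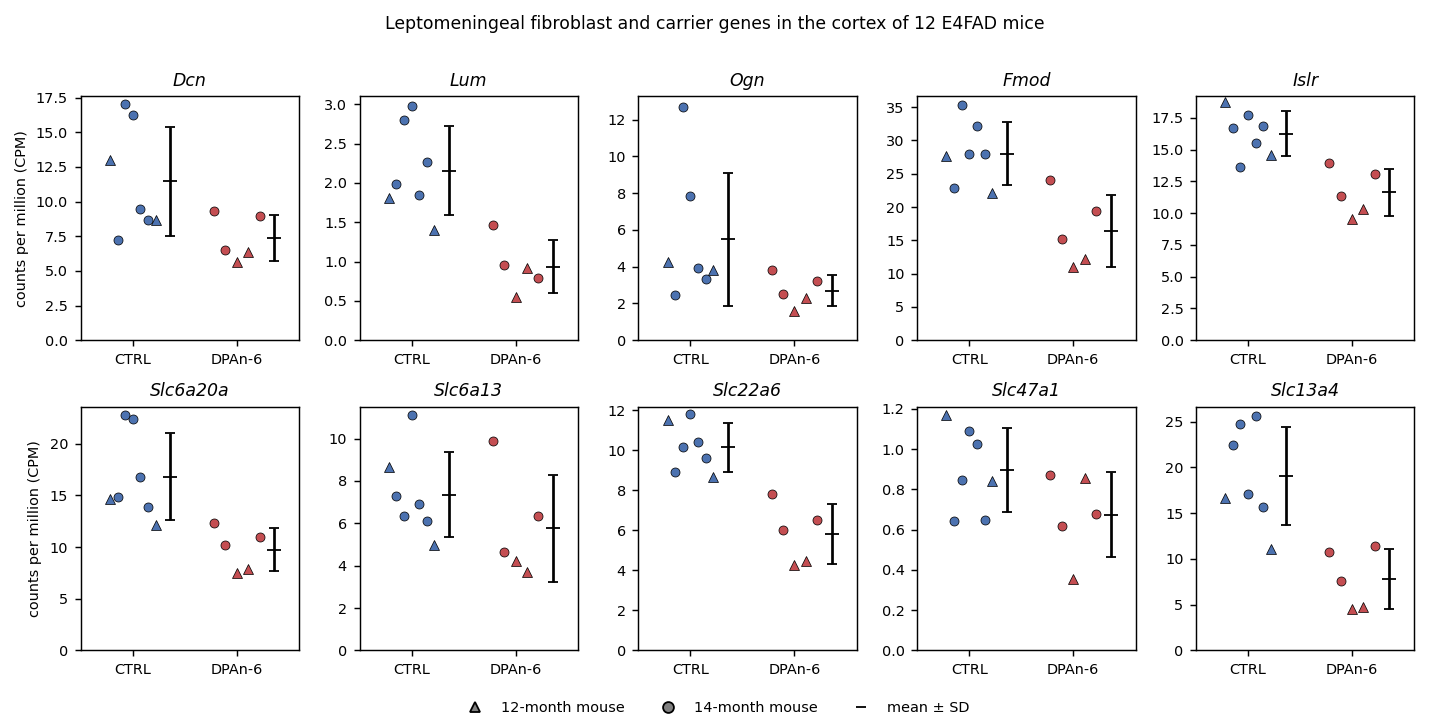
CPM of the 10 genes in each of the 12 mice, with 1 point per mouse (triangles 12 months, circles 14 months), blue for the 7 CTRL and red for the 5 DPAn-6 mice, and the mean ± SD of each group at its right. Slc22a6 is the panel with a gap between the groups, and in the other 9 the ranges overlap, most widely for Slc6a13 and Slc47a1.

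Among the proteoglycans, Fmod (fibromodulin, which guides the assembly of collagen fibrils, ENSMUSG00000041559, chromosome 1, 134037254 to 134048277, + strand) gave the highest counts, 185 to 626 per mouse. The CTRL mice ranged from 22.2 to 35.4 CPM with a median of 28.0. DPAn-6 replicates 1 to 5 had 24.1, 15.2, 11.01, 12.2 and 19.4 CPM. All but the first of these lay below the lowest CTRL mouse, and the log2 fold change was -0.80 ± 0.18 (SE). Lum (lumican, a keratan sulfate proteoglycan that binds collagen fibrils, ENSMUSG00000036446, chromosome 10, 97565128 to 97572703, + strand) was a low gene, with 11 to 52 counts per mouse. Its CTRL values ran from 1.40 through a median of 1.99 to 2.98 CPM, and the DPAn-6 mice had 1.47, 0.953, 0.553, 0.920 and 0.792 CPM. Again only DPAn-6 replicate 1 reached into the CTRL range, and the log2 fold change was -1.23 ± 0.25 (SE).

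Dcn (decorin, which binds collagen and growth factors, ENSMUSG00000019929, chromosome 10, 97479609 to 97518143, + strand) lies 47.0 kb from Lum on the same chromosome. In CTRL it ranged from 7.24 to 17.0 CPM with a median of 9.49, and the DPAn-6 mice had 9.29, 6.502, 5.63, 6.38 and 8.97 CPM. DPAn-6 replicates 1 and 5 lay within the CTRL range, the 3 others below it, and the log2 fold change was -0.66 ± 0.22 (SE). Ogn (osteoglycin, another small leucine-rich proteoglycan, ENSMUSG00000021390, chromosome 13, 49608046 to 49624501, + strand), whose promoter is printed above, varied most among the CTRL mice, with a coefficient of variation of 65.9%. Its CTRL values ran from 2.43 through a median of 3.95 to 12.7 CPM in replicate 3, and the DPAn-6 mice had 3.80, 2.52, 1.61, 2.30 and 3.24 CPM. The log2 fold change of Ogn was -1.04 ± 0.38 (SE) and was -0.67 without CTRL replicate 3, so that this 1 library moved it by more than 1.5 times.

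Islr (a leucine-rich, immunoglobulin-domain surface protein of fibroblasts, ENSMUSG00000037206, chromosome 9, 58156268 to 58204306, - strand) was the steadiest of the 10 in CTRL, with a coefficient of variation of 10.98%, against a median of 16.8% over all genes tested. The CTRL mice ranged from 13.6 to 18.7 CPM with a median of 16.7, and the DPAn-6 mice had 14.0, 11.3, 9.504, 10.3 and 13.1 CPM. DPAn-6 replicate 1 lay just above the lowest CTRL mouse and the 4 others below it, and the log2 fold change was -0.50 ± 0.11 (SE). The annotated span of Islr overlaps Islr2 on the same strand, a gene with up to 2331 counts, so that reads of shared exons would be counted for neither.

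Of the carriers, Slc13a4 (a sodium-sulfate cotransporter, ENSMUSG00000029843, chromosome 6, 35267957 to 35308131, - strand) differed most. The CTRL mice ranged from 11.1 to 25.6 CPM with a median of 17.1, and the DPAn-6 mice had 10.8, 7.62, 4.48, 4.73 and 11.4 CPM. DPAn-6 replicate 5 lay just above the lowest CTRL mouse and the 4 others below it. The log2 fold change was -1.30 ± 0.26 (SE), the DPAn-6 mean being 59.1% lower. The 3 CTRL mice with the most Slc13a4, replicates 2, 3 and 5 with 22.5, 24.7 and 25.6 CPM, were also the 3 with the most Ttr (transthyretin, made by the choroid plexus), at 1530, 166.8 and 940.7 CPM. With Ttr as a covariate the log2 fold change of Slc13a4 was -0.74.

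Slc22a6 (the organic anion transporter OAT1, ENSMUSG00000024650, chromosome 19, 8618039 to 8628299, + strand) separated the groups. The CTRL mice ranged from 8.64 to 11.8 CPM with a median of 10.2, and the DPAn-6 mice had 7.83, 5.998, 4.27, 4.47 and 6.52 CPM. All 5 lay below all 7, with a log2 fold change of -0.82 ± 0.15 (SE). Slc6a20a (a sodium-coupled carrier of proline, ENSMUSG00000036814, chromosome 9, 123634770 to 123678885, - strand) had a similar difference but a wider CTRL spread. Its CTRL values ran from 12.1 through a median of 14.9 to 22.8 CPM, and the DPAn-6 mice had 12.3, 10.2, 7.44, 7.89 and 10.97 CPM. Only DPAn-6 replicate 1 reached the CTRL range, and the log2 fold change was -0.81 ± 0.18 (SE).

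Slc6a13 (GAT2, a carrier of GABA and taurine, ENSMUSG00000030108, chromosome 6, 121300227 to 121337733, + strand) had the smallest difference. The CTRL mice ranged from 4.99 to 11.1 CPM with a median of 6.92, and the DPAn-6 mice had 9.89, 4.65, 4.22, 3.68 and 6.34 CPM. DPAn-6 replicate 1 was second highest of all 12 mice, while replicates 2, 3 and 4 lay below every CTRL mouse. The log2 fold change of Slc6a13 was -0.37 ± 0.24 (SE). It was -0.64 without DPAn-6 replicate 1, -0.24 without DPAn-6 replicate 4, -0.24 without CTRL replicate 4 and -0.14 in the 14-month mice alone. Slc47a1 (MATE1, which extrudes organic cations, ENSMUSG00000010122, chromosome 11, 61343401 to 61378345, - strand) rested on 7 to 20 counts per mouse. Its CTRL values ran from 0.641 through a median of 0.848 to 1.17 CPM, the DPAn-6 mice had 0.870, 0.617, 0.352, 0.855 and 0.679 CPM, and the groups overlapped. The log2 fold change of Slc47a1 was -0.44 ± 0.25 (SE), -0.28 without DPAn-6 replicate 3 and -0.27 in the 14-month mice alone.

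The same few mice stood at the ends of the range for most of the genes. DPAn-6 replicate 3, a 12-month mouse, was lowest of all 12 mice for 9 of the 10 genes, and replicate 4, the other 12-month mouse of the group, was lowest for Slc6a13. The highest mouse was always a CTRL mouse, replicate 3 for 4 genes, replicate 4 for 3, replicate 1 for 2 and replicate 5 for 1. Summed over the 10 genes the CTRL mice ranged from 88.4 through a median of 118.2 to 146.4 CPM, and DPAn-6 replicates 1 to 5 had 94.3, 65.5, 49.1, 53.7 and 81.4 CPM. DPAn-6 replicate 1 thus lay above CTRL replicate 7, the lowest of its group, and the 4 others below it.

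**Figure D2:**
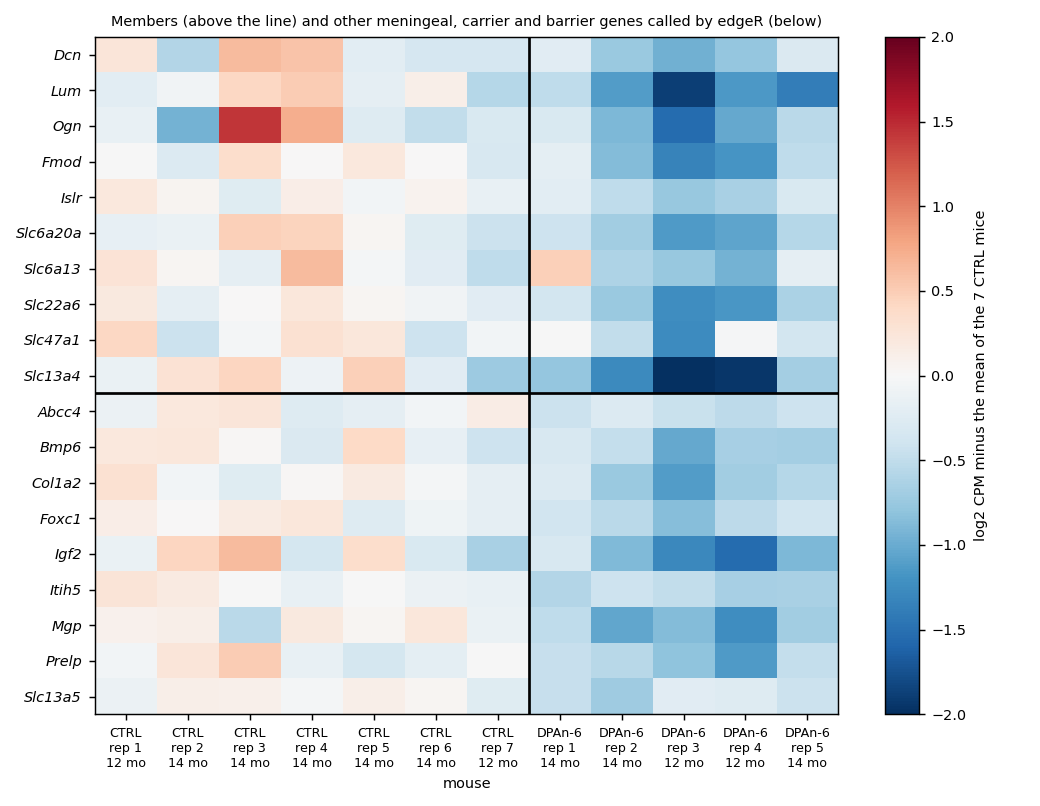
Log2 CPM minus the mean of the 7 CTRL mice, with a row per gene and a column per mouse: the 10 genes above the horizontal line and the 9 other listed genes called by edgeR below it, CTRL mice left of the vertical line, colours cut at ±2. DPAn-6 replicate 3 holds the lowest value in 9 of the 10 upper rows, and DPAn-6 replicate 1 is above the CTRL mean for Slc6a13.

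Per kilobase of exon the order of levels in CTRL was Fmod (8.48 ± 1.42 CPM per kb, SD, n = 7), Islr (6.05 ± 0.66), Slc13a4 (4.21 ± 1.18), Slc6a20a (4.11 ± 1.03), Slc22a6 (2.55 ± 0.30), Slc6a13 (2.53 ± 0.69), Ogn (2.14 ± 1.41), Dcn (1.97 ± 0.67), Lum (0.88 ± 0.23) and Slc47a1 (0.26 ± 0.06). Slc13a4 and Slc6a20a differed by less than their spread, as did each neighbouring pair from Slc22a6 to Dcn. In DPAn-6 Fmod stayed first (4.96 ± 1.64, n = 5) and Islr second (4.33 ± 0.69), while Slc6a20a (2.39 ± 0.51) and Slc6a13 (1.98 ± 0.87) stood before Slc13a4 (1.72 ± 0.72), again within the spread.

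Age was not used to choose the genes and was tested with the treatment group in the model. By edgeR's quasi-likelihood test with Benjamini-Hochberg adjustment 0 of the 10 genes differed between 14 and 12 months (adjusted p = 1 for each), as 0.0% of all genes did, and limma-voom and DESeq2 also called 0 of the 10. Without adjustment 4 of the 10 had p below 0.05, where 1.78% of all genes did. These were Slc13a4 (log2 difference, 14 minus 12 months, 0.81 ± 0.18 SE, edgeR unadjusted p = 0.00058, adjusted p = 1), Slc6a20a (0.49 ± 0.15), Fmod (0.46 ± 0.15) and Lum (0.56 ± 0.23), with more mRNA in the 14-month mice. The age differences were above 0 for 9 of the 10, with a median of 0.45, where 51.0% of all genes were above 0. Within the treatment groups the 10 genes varied together between mice (r of 0.663 to 0.937 to their own mean). The counts of 4 and 9 are therefore not of independent genes. The 3 CTRL mice with the most Ttr were all 14 months old, and with Ttr as covariate the age difference of Slc13a4 was 0.62.

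Within the 12-month mice both DPAn-6 mice lay below both CTRL mice for 9 of the 10 genes, where 24.3% of all genes did so, and the median difference of mean log2 CPM was -0.94. Within the 14-month mice 4 of the 10 separated without overlap (Lum, Slc6a20a, Slc22a6 and Slc13a4), where 3.71% of all genes did, with a median of -0.59. A larger fall at 12 months was seen for 9 genes. The 10 genes were picked on the contrast of the groups, which both ages make up, so nothing is read from these counts. The interaction of age and treatment was called by edgeR for 0 of the 10 genes, where 0.00637% of all genes were called, and by limma-voom and DESeq2 for 0, and its unadjusted p was below 0.05 for 1 of them, Slc22a6 (difference of the log2 fold changes, 14 minus 12 months, 0.59 ± 0.25 SE, edgeR unadjusted p = 0.0331, adjusted p = 0.905), where 4.26% of all genes were. With 4 mice of 12 months and 8 of 14 months a difference between the ages was not shown.

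Genes with related roles that are not among the 10 were tested in the same fit. Their lists were also chosen with earlier results of these data known, so their counts are no independent check on the 10. Over 5 lists of meningeal matrix, meningeal identity and signalling, proteoglycan, carrier and barrier genes, 72 of 82 genes passed the filter, 61 of them had a log2 fold change below 0, 9 fell and 0 rose by edgeR (adjusted p below 0.05), where 1.14% of all genes fell and 0.408% rose. Limma-voom and DESeq2 also called 0 as higher, and 1 other carrier and 3 barrier transporters were higher at an unadjusted edgeR p below 0.05. The count of 9 changed when single mice were left out. Among DPAn-6 mice it was 2 without replicate 2, 3 or 4, 3 without replicate 5 and 4 without replicate 1, and among CTRL mice it was 3 without replicate 1, 5 without replicate 4 and 20 without replicate 3. Over 23 alternatives to the fit the call was kept in 20 for Itih5, 19 for Mgp, 17 for Col1a2, 12 for Foxc1, 10 for Prelp, 9 for Igf2 and 6 each for Bmp6, Abcc4 and Slc13a5, with a log2 fold change below 0 in all 23 for each of these genes.

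Other matrix genes of meningeal fibroblasts were below 0 in 17 of 17 tested (median -0.39), and 3 of them fell. Itih5, a heavy chain that binds hyaluronan, had 53.8 ± 6.15 CPM in CTRL (SD, n = 7) and 36.5 ± 2.70 in DPAn-6 (n = 5). Its log2 fold change was -0.58 ± 0.09 (SE, edgeR adjusted p = 0.00551, exact permutation test, two-sided, p = 0.00126, the smallest that 7 against 5 mice can give). Mgp, matrix Gla protein, a calcification inhibitor, fell from 11.9 ± 1.93 to 6.496 ± 1.31 CPM (log2 fold change -0.89 ± 0.14 SE, edgeR adjusted p = 0.0085). Col1a2, a chain of type I collagen, fell from 21.1 ± 2.88 to 13.3 ± 2.77 CPM (log2 fold change -0.69 ± 0.13 SE, edgeR adjusted p = 0.017), while its partner chain Col1a1 had a log2 fold change of -0.35 ± 0.18 SE (edgeR adjusted p = 0.401).

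Genes of meningeal fibroblast identity and signalling were below 0 in 21 of 22, with a median of -0.48, and again 3 fell. Foxc1, a forkhead factor needed for the meninges to form, fell from 10.4 ± 1.31 to 7.14 ± 0.870 CPM (log2 fold change -0.57 ± 0.12 SE, edgeR adjusted p = 0.0276), and all 5 DPAn-6 mice lay below all 7 CTRL mice. The growth factor Igf2 (-1.02 ± 0.24 SE, edgeR adjusted p = 0.0484) and the bone morphogenetic protein Bmp6 (-0.67 ± 0.15 SE, edgeR adjusted p = 0.0464) passed the threshold narrowly, with 4 of the 5 DPAn-6 mice below every CTRL mouse for each. Two-sided exact permutation tests gave p = 0.00758 for Igf2 and p = 0.00631 for Bmp6. The 3 CTRL mice with the most Igf2 were replicates 2, 3 and 5, with 146.4, 168.7 and 138.3 CPM. The same mice had the most Ttr. Over the 23 alternatives the log2 fold change of Igf2 ran from -1.21 to -0.33.

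**Figure D3:**
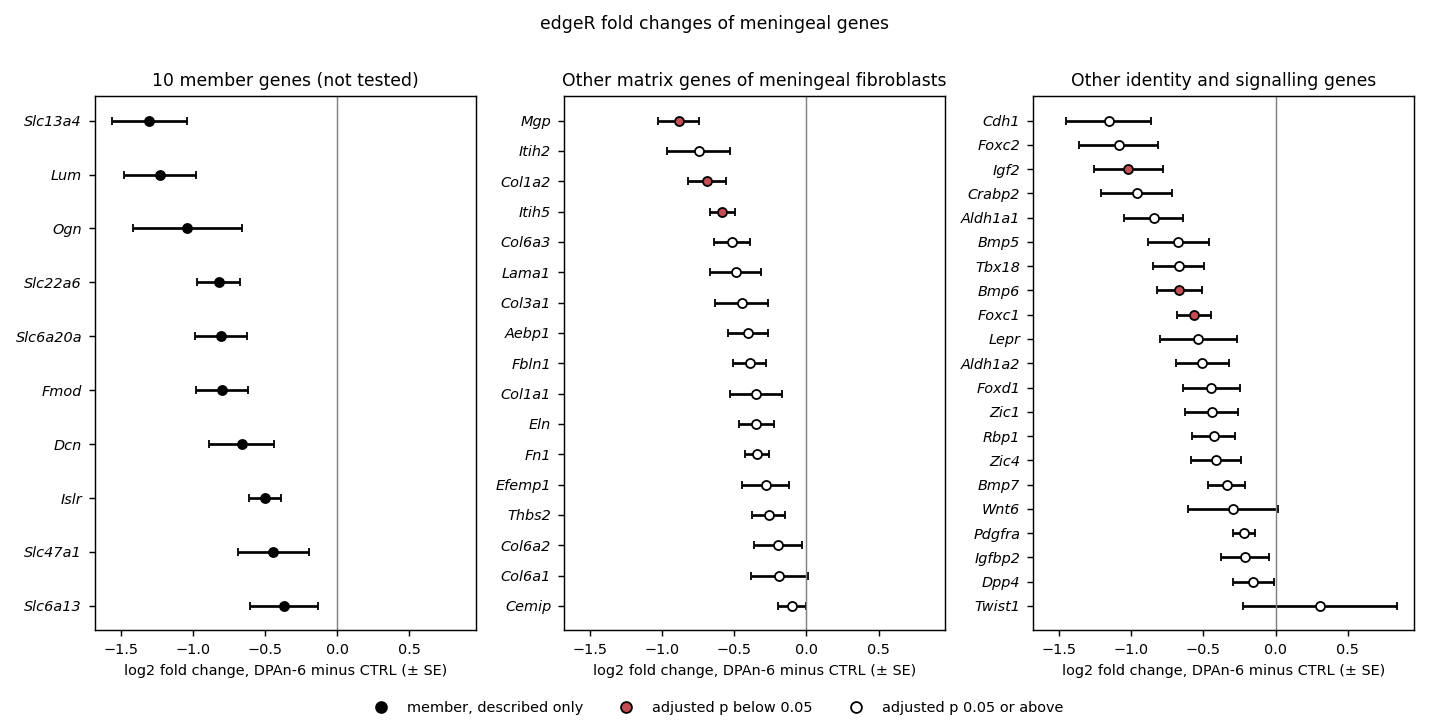
EdgeR log2 fold changes, DPAn-6 minus CTRL, with bars of 1 SE, for the 10 genes (left, described only), the 17 other matrix genes tested (middle) and 21 of the 22 other identity and signalling genes (right); red points have an adjusted p below 0.05. All points but Twist1 lie left of 0, and the bars of Col6a1, Wnt6 and Twist1 reach 0.

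The other small leucine-rich proteoglycans moved less evenly: 9 of 14 passed the filter, 6 were below 0 and 1 fell, Prelp, from 45.6 ± 9.64 to 28.3 ± 5.18 CPM (log2 fold change -0.71 ± 0.15 SE, edgeR adjusted p = 0.0347). Prelp lies 116 kb from Fmod on chromosome 1. Aspn and Omd, which lie 40.5 and 15.2 kb from Ogn, were low. Aspn had a log2 fold change of -0.36 ± 0.39 SE (edgeR adjusted p = 0.745) and Omd did not pass the filter.

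Other carriers of the same families were below 0 in 11 of 12 tested, with a median of only -0.12, and 1 fell, the citrate carrier Slc13a5 (log2 fold change -0.44 ± 0.10 SE, edgeR adjusted p = 0.0466), from 18.3 ± 1.68 to 13.7 ± 1.75 CPM. Slc22a8, the organic anion transporter OAT3, lies 6203 bases from Slc22a6 on chromosome 19 and had 22.9 ± 2.63 CPM in CTRL and 17.0 ± 3.30 in DPAn-6. The log2 fold change, -0.45 ± 0.12 SE, missed the threshold (edgeR adjusted p = 0.0875). Slc6a12, 5.34 kb from Slc6a13, had -0.66 ± 0.43 SE (edgeR adjusted p = 0.526), and Slc6a20b and Slc47a2, the paralogs next to Slc6a20a and Slc47a1, did not pass the filter. Transporters of the brain endothelium and barriers were below 0 in 8 of 14, with a median of -0.06, and 1 fell, the efflux pump Abcc4 (-0.45 ± 0.10 SE, edgeR adjusted p = 0.0442), for which all 5 DPAn-6 mice lay below all 7 CTRL mice.

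Markers of other cells that share the brain's borders were read beside the 10 genes. The 8 border macrophage markers summed to 34.0 to 51.0 CPM in CTRL and 23.4 to 32.9 CPM in DPAn-6. All 6 that passed the filter were below 0, and 3 fell: Mrc1 (mannose receptor, log2 fold change -1.29 ± 0.17 SE, edgeR adjusted p = 0.0026), Cd163 (-1.29 ± 0.27, adjusted p = 0.0292) and F13a1 (-1.36 ± 0.22, adjusted p = 0.0085). The 10 mural cell markers summed to 330.6 to 375.1 CPM in CTRL and 288.8 to 308.0 CPM in DPAn-6, with 10 below 0 and 1, the smooth muscle myosin Myh11, called (-0.76 ± 0.12 SE, edgeR adjusted p = 0.00551). The 10 endothelial markers summed to 312.9 to 354.0 CPM in CTRL and 299.8 to 335.5 in DPAn-6, and 0 of them were called by edgeR, limma-voom or DESeq2, with 2 at an unadjusted edgeR p below 0.05.

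The 12 choroid plexus markers ranged from 14.4 to 1721 CPM in CTRL and from 8.69 to 25.8 CPM in DPAn-6. All 6 that passed the filter were below 0 and 0 were called by edgeR, and by limma-voom, although all 6 had an unadjusted edgeR p below 0.05 and DESeq2 called all 6. None of the 12 was at 0 in all mice. Ttr was 1530, 940.7 and 166.8 CPM in CTRL replicates 2, 5 and 3, between 6.004 and 24.1 CPM in the 4 other CTRL mice, and 4.78, 1.79, 4.78, 3.16 and 14.7 CPM in the DPAn-6 mice. With Ttr as covariate 0 of the 10 genes and 1 of the other listed genes were called, while all 10 log2 fold changes were below 0 with a median of -0.69. Ttr itself had a log2 fold change of -6.01 ± 1.46 SE (edgeR adjusted p = 0.0553). In 4 of the 5 DPAn-6 mice it lay below every CTRL mouse. The covariate thus shares much of its variation with the treatment, and what the lost calls reflect was not tested. Slc13a4 moved most, from -1.30 to -0.74, while Slc6a20a moved from -0.81 to -0.67 and Fmod from -0.80 to -0.66. Lum was at -1.22, Ogn at -1.01, Slc22a6 at -0.82, Dcn at -0.72, Slc47a1 at -0.51, Islr at -0.50 and Slc6a13 at -0.31. The 8 ependymal markers summed to 17.3 to 25.6 CPM in CTRL and 12.3 to 20.5 in DPAn-6, with 1 of 6 tested called, Hydin (-1.24 ± 0.22 SE, edgeR adjusted p = 0.0142). Inside the tissue, the 8 microglial markers summed to 741.5 to 1029 CPM in CTRL and 556.7 to 727.8 CPM in DPAn-6 and 2 fell by edgeR, Tmem119 (adjusted p = 0.0286) and Csf1r (adjusted p = 0.0282), while 0 markers of astrocytes, excitatory neurons or red blood cells were called by edgeR, limma-voom or DESeq2, and 2, 1 and 0 of them had an unadjusted edgeR p below 0.05.

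The list of matrix genes outside the 10 was also summed in each library, and which cells made these transcripts was not tested. Fn1 (mean of 140.6 CPM in CTRL), Col6a1 (69.3) and Itih5 (53.8) were the largest parts of the sum. Among the CTRL mice the order of the sums was not that of the 10 genes. Replicate 2 had the highest sum, 534.1 CPM, with 105.4 CPM of the 10 genes. Replicate 3 had a sum of 425.8 CPM with the most of the 10 genes, 146.4 CPM. The 18 genes of that list summed to 413.9 to 534.1 CPM in CTRL and to 388.1, 373.1, 319.2, 347.3 and 376.8 CPM in DPAn-6 replicates 1 to 5, so that the groups did not overlap. With the mean log2 CPM of the 17 tested as a covariate, a fit added after the data were seen, the 10 genes had a median of -0.34 on the log2 scale, Ogn (-1.23) and Lum (-0.89) had the lowest values, Islr had -0.05 and Slc6a13 had 0.62. The sum of the 18 genes was low in all 5 DPAn-6 mice. For the 10 genes, DPAn-6 replicate 1 had 94.35 CPM, above the 88.37 CPM of CTRL replicate 7. The amount of meninges in a dissection and the treatment cannot be told apart. The part of the border macrophages and mural cells in the result was not tested.

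**Figure D4:**
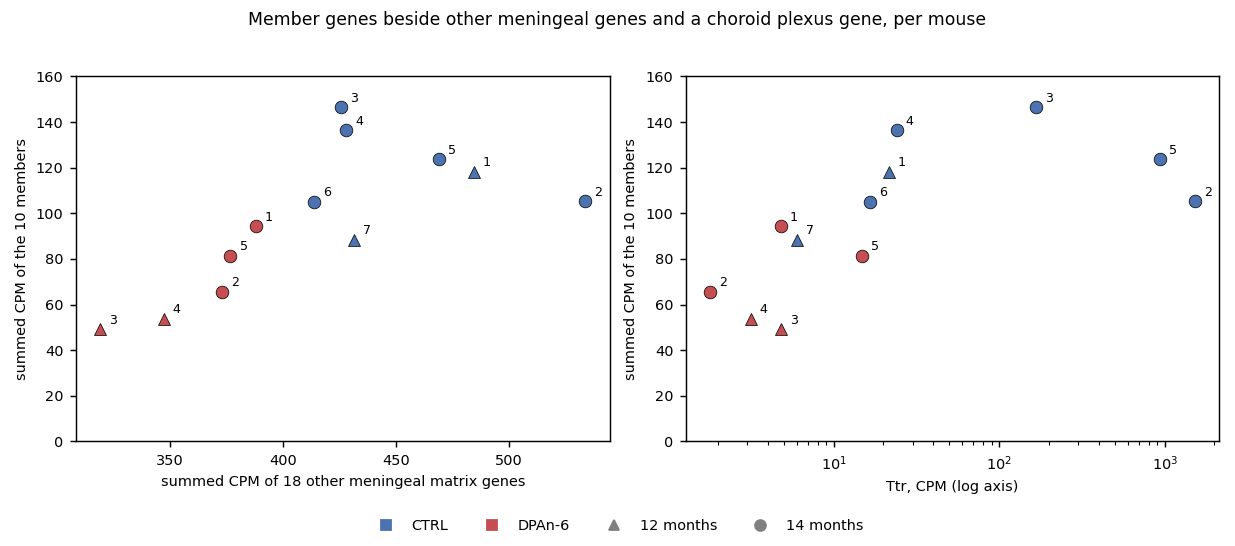
Summed CPM of the 10 genes in each mouse (y axis) against the summed CPM of the 18 other meningeal matrix genes (left) and against the CPM of Ttr on a log axis (right), blue for CTRL and red for DPAn-6, with replicate numbers beside the points. DPAn-6 mice lie at the lower left of the left panel, between 319.2 and 388.1 CPM of the other matrix genes, and the CTRL mice at 413.9 CPM and above. On the right, CTRL replicates 2, 3 and 5 stand apart at high Ttr.

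For each gene tested outside the group, likeness to the 10 was measured as Pearson's r between its log2 CPM and the mean of the standardised log2 CPM of the 10 genes over the 12 mice, after each treatment group was centred on its mean. This is a description across mice that share libraries and depth. The 20 genes most alike had r from 0.78 to 0.90, where the median over all genes was -0.0041. These are the highest values among all genes tested, over only 12 mice. A pick of this kind gives high r in unrelated genes too, so nothing is read from the size of r. Mrgprf came first (r = 0.899), followed by Aldh1a2, which makes retinoic acid in the meninges (r = 0.895), the scavenger receptor Colec12 (r = 0.895), Sned1 (r = 0.889) and the collagen-binding Aebp1 (r = 0.883). The others were Cd72, Gtf2f2, Gadd45a, Dap, Alx4, Il17d, 3110039M20Rik, Bbox1, Riok1, Cdh1, Foxc1, Eda2r, Serpinf1, Olfml2a and E130311K13Rik. Of the 20, 4 stood in the meningeal lists, 17 had a log2 fold change below 0 and 3 fell by edgeR: Colec12 (-0.67 ± 0.14 SE, adjusted p = 0.0277), Foxc1 (adjusted p = 0.0276) and Olfml2a (-0.65 ± 0.13 SE, adjusted p = 0.0192). Within the group itself r ran from 0.663 for Slc47a1 to 0.937 for Slc22a6, each gene being part of its own mean.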

How the data were processed

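Cortex RNA was sequenced from 12 E4FAD mice, 1 library each. Poly(A) RNA was selected by the authors and made into KAPA mRNA libraries, the reads were aligned to GRCm38 with STAR (version 2.5.3a per the labels), and the deposited values are raw counts of reads per gene that were not normalized. Which strand setting was counted is not given in the sources used here. Here edgeR 4.0.16 (R 4.3.3) was fitted to these counts by quasi-likelihood, with filterByExpr by group, TMM scaling and the treatment group as the only term, and p-values were adjusted over 15688 genes by the Benjamini-Hochberg method, with a call at an adjusted p below 0.05. SE is the log2 fold change divided by the root of its F statistic. CPM used the total count on genes, and log2 CPM a pseudocount of 0.5. Age was tested beside the group, and its interaction with the group in a further fit. For single genes outside the group of 10, mean log2 CPM was compared in an exact permutation test, two-sided, as well. Lists were described by counts and medians, with no test of a list. The study's methods name limma-voom, which was run as an alternative (limma 3.58.1). Further alternatives were DESeq2 1.42.0, other scalings and filters, Ttr or age as a covariate, the 14-month mice alone, a block for the replicate number, and fits that left out 1 mouse at a time. Summaries used Python 3.11.15. Symbols, positions and exon lengths came from the GENCODE M21 annotation (50339 identifiers matched). The fits were also run on simulated counts with the same dispersion for every gene, no outlying library and changes only in well-counted genes. That run says nothing about low genes such as Lum and Slc47a1.

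The 10 genes and the lists of other genes were chosen with earlier results of these data known. The genes named are the 10, the 20 genes most alike, Ttr, and the listed genes called by edgeR or adjoining 1 of the 10 in the genome. Fn1 and Col6a1 are named for their part in the sum of the matrix genes. Col1a1, Twist1 and the genes whose error bars are named as reaching 0 were chosen after their values were seen. Of the identity and signalling genes, 1 is not reported here by name. Each mouse is 1 animal, so p-values measure the spread between animals. Sex is given per group only and was not modelled, and no library was left out of the values reported as the result.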

Additional observations from a re-analysis of the deposited data

How the results depend on the processing

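Over 22 alternatives, 219 of 219 log2 fold changes of the 10 genes were below 0, from -1.54 to -0.14. With the mean of the other meningeal matrix genes as covariate, added later, the median of the 10 was -0.34 and Slc6a13 turned to 0.62. The number of the 10 genes called by edgeR, 6 as reported, was 0 with Ttr as covariate (median log2 fold change -0.69), 0 in 14-month mice only (median -0.61), 0 with the matrix covariate and between 0 and 6 with 1 mouse left out. The number of other listed genes called as lower, 9 as reported, was 19 with DESeq2, 5 without TMM, 1 with Ttr, 0 in 14-month mice only, 0 with the matrix covariate and between 2 and 20 with 1 mouse left out. The 14-month and left-out fits held fewer mice, and the cause of the changes was not tested for any of the fits. Replicate numbers did not pair the mice: deviations of same-numbered mice correlated at -0.125 to 0.22, and 0 of 5 DPAn-6 mice were most like their own number. With the replicate number as a block, 2 of the 10 and 3 of the other genes were called. The age difference of Slc47a1, -0.01 as reported, was 0.031 with limma-voom, 0.033 with Ttr, 0.18 with the replicate block and from -0.23 to 0.18 with 1 mouse left out. A minimum of 1 CPM in 5 mice removed Slc47a1.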
